A study of Saccharomyces cerevisiae with 4 samples.

Results

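The 35 genes described here encode the enzymes with which budding yeast, Saccharomyces cerevisiae, removes reactive oxygen and nitrogen species and keeps its thiols reduced, together with the transcription factors Yap1 and Skn7. They were taken by systematic identifier from a list of named systems, and all 35 were found among the 6688 identifiers of the deposited tables and passed the low-count filter. Polyadenylated RNA was sequenced from nhp6ab cells and from wild-type (WT) cells, both in exponential growth in YPD, a rich glucose medium, with 2 libraries per strain. The label nhp6ab is the usual name of a strain without NHP6A and NHP6B, the genes of a pair of small HMG-box proteins that bend DNA and work with the histone chaperone FACT. The labels give no alleles, mating type or parent strain, and do not say whether the 2 libraries of a strain came from separate cultures, so a p-value here covers the spread between libraries alone, and that spread may be technical. Total deposited expected counts were 29115870 and 28721743 in the nhp6ab libraries and 27581468 and 22622592 in the wild-type libraries. NHP6A had 11.1 and 12.0 CPM (counts scaled by library size and TMM factors) in nhp6ab against 122 and 129.6 CPM in the wild type, and NHP6B had 33.4 and 32.6 CPM in nhp6ab against 80.0 and 86.0 CPM in the wild type, so both were lower in the nhp6ab libraries without being absent.

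Superoxide dismutases turn superoxide into hydrogen peroxide, which catalases, the heme peroxidase Ccp1, peroxiredoxins and glutathione peroxidases then reduce. Thioredoxins and glutaredoxins return oxidised thiols to their reduced form with electrons that come, through thioredoxin reductase or through glutathione and its reductase, from NADPH. In yeast the transcription factors Yap1 and Skn7 raise many of these genes under peroxide, and Msn2 and Msn4 raise several of them in the general stress response.

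Of the 35 genes, 22 were lower and 5 higher in nhp6ab at an adjusted p under 0.05, and 8 were not called. The test was edgeR's quasi-likelihood test with the Benjamini-Hochberg adjustment across 6422 tested genes, to which every adjusted p below refers unless another method is named. The background was high: 49.5% of all genes tested were called, 24.5% higher and 25.0% lower. The share of the 35 that was called lower was 62.9%, and the share called higher was 14.3%. The median log2 fold change was -0.25 over the 35 genes and 0.0071 over all genes tested. Decreases of at least 2-fold on this scale were seen in YHB1, TSA2 and OYE3, against 3.07% of all genes. No member rose 2-fold, against 1.37%. On the other 2 scales given below, YHB1 alone of the 35 fell at least 2-fold, and the share of all genes was not taken there. In 32 of the 35 the CPM values of the strains did not overlap, against 77.5% of all genes.

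**Figure D1:**
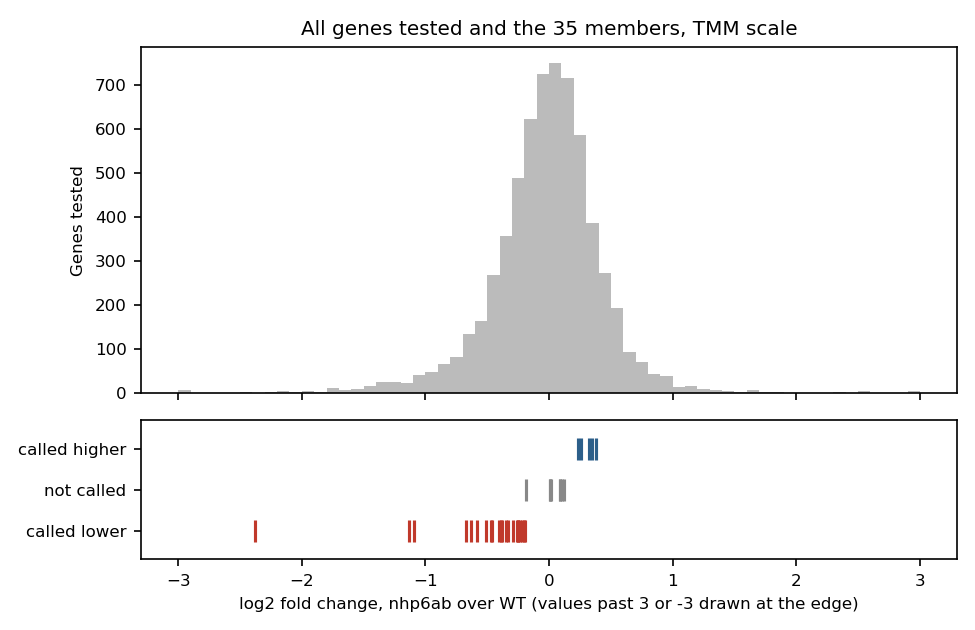
Histogram of the log2 fold change (nhp6ab over WT, TMM scale) of all 6422 genes tested, in bins of equal width, above a strip with 1 mark for each of the 35 members, grouped by call. Most members called lower lie between 0 and -0.7, TSA2 and OYE3 lie at -1.14 and -1.09, YHB1 lies at -2.38, and the 5 called higher end at 0.38.

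The direction of small changes depended on the scaling. The TMM factors used here assume that most genes are unchanged, and with them the all-gene median log2 fold change was 0.0071. Without these factors, on plain library sizes, the all-gene median was 0.22, and on log2(TPM + 1) it was 0.28, TPM being counts scaled by gene length and by the library's sum. On plain library sizes 11 of the 35 were called higher (31.4%, against 47.1% of all genes) and 10 lower (28.6% against 12.5%). In TPM, 12 were higher (34.3% against 54.5%) and 6 lower (17.1% against 9.25%). The member median on these scales was -0.039 and 0.043. Dropping wild-type replicate 1, with TMM factors, gave fewer calls both among the members and among all genes. The member median was then -0.24, and the all-gene median 0.0022. Relative to the median of all genes, the member median was -0.26 with TMM factors, -0.26 with plain library sizes and -0.24 in TPM, and 24 of the 35 genes lay below the median of all genes on each. YHB1, TSA2, OYE3, GTT1, TRX3 and DOT5 were called lower, and CCP1, CTA1, AHP1, PRX1 and GLR1 higher, on all 3 scales. In bulk RNA a change in every cell and a change in a share of the cells cannot be told apart.

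**Figure D2:**
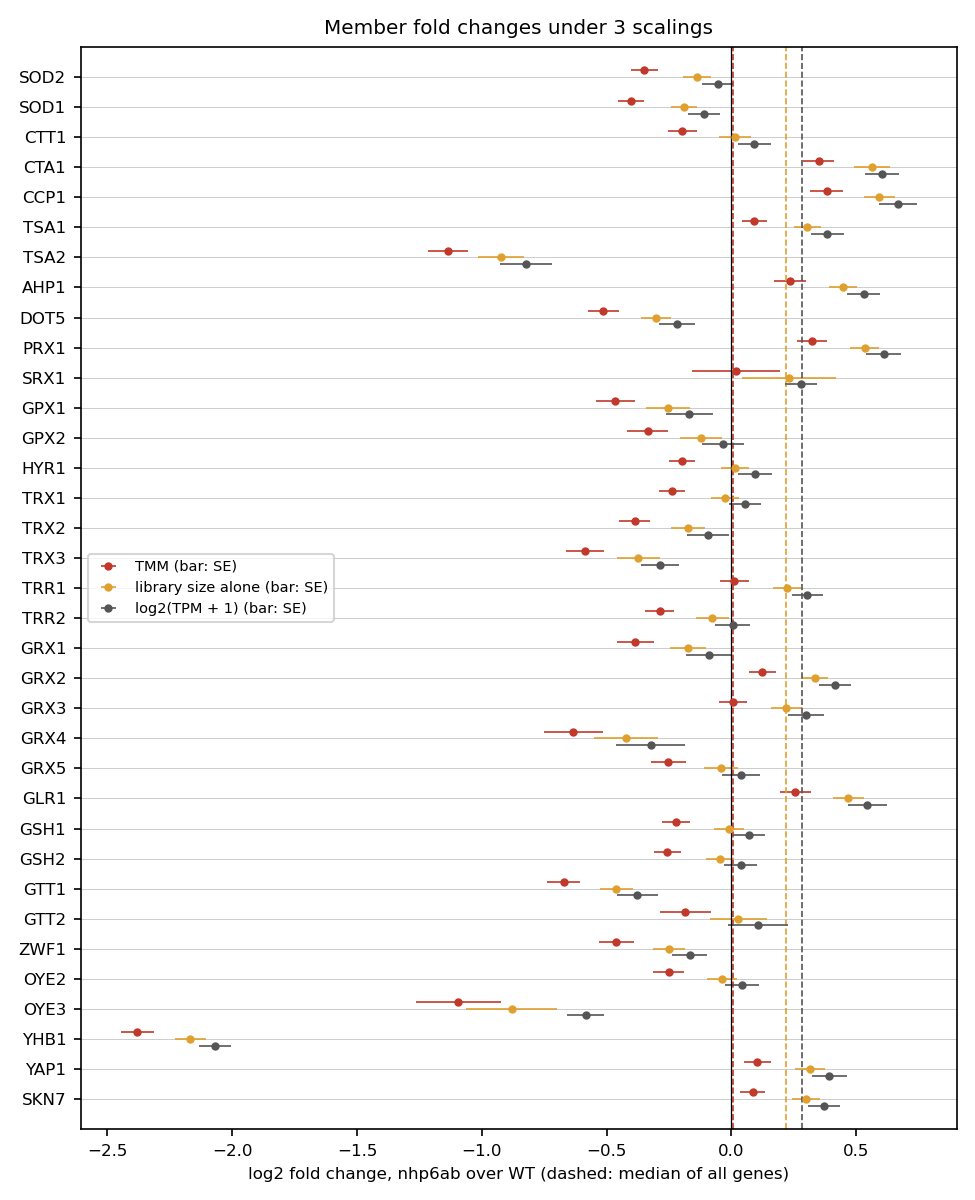
Log2 fold change (nhp6ab over WT, points) with its SE (bars) of each of the 35 genes under TMM factors, plain library sizes and log2(TPM + 1), with the median of all genes as a dashed line for each. Every gene moves to the right with plain library sizes and in TPM, YHB1 stays below -2 and the genes near -0.25 cross or approach 0.

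YHB1 (YGR234W; chromosome VII, 959904 to 961103, plus strand) had by far the largest change of the 35. It encodes the yeast flavohemoglobin, which oxidises nitric oxide to nitrate and so protects the cell from nitrosative stress. The nhp6ab libraries had 85.8 and 80.4 CPM and the wild-type libraries 446 and 419 CPM, so that nhp6ab kept 19.2% of wild-type expression (log2 fold change -2.38 ± 0.068 SE, adjusted p = 2.62e-06). The libraries of each strain lay close together and the strains were far apart. Under the 14 alternatives the log2 fold change ran from -2.43 to -2.07, with a call in each. Per gene length, nhp6ab had 65.9 and 63.5 TPM and the wild type 278 and 271 TPM.

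The regions before the start codons of the 3 genes that fell at least 2-fold and of CCP1, the gene with the largest increase, are shown so that their sequences can be set beside their changes. Each runs from 250 bases before the start codon to 50 bases from it, read on the strand of the gene from the R64 reference (sacCer3). Capitals mark matches, on either strand, to the Yap1 response element TTACTAA, its variant TGACTAA or the stress response element AGGGG bound by Msn2 and Msn4.
YHB1 (chrVII:959654-959953, plus strand): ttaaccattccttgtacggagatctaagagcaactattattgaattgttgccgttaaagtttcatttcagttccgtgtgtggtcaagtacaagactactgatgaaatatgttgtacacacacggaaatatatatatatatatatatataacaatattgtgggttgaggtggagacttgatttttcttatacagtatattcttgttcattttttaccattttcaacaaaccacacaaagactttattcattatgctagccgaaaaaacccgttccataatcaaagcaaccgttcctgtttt
TSA2 (chrIV:1365613-1365912, minus strand): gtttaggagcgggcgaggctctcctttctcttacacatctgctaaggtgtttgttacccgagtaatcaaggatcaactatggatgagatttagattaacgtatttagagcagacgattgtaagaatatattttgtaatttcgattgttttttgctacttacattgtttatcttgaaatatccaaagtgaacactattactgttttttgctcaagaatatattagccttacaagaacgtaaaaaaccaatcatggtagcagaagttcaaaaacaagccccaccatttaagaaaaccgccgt
OYE3 (chrXVI:227322-227621, minus strand): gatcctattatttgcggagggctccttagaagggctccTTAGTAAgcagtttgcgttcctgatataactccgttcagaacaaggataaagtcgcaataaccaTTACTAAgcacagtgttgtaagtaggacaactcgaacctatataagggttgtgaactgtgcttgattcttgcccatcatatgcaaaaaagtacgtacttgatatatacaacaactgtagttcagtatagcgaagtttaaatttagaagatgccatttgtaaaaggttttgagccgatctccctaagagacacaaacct
CCP1 (chrXI:567149-567448, minus strand): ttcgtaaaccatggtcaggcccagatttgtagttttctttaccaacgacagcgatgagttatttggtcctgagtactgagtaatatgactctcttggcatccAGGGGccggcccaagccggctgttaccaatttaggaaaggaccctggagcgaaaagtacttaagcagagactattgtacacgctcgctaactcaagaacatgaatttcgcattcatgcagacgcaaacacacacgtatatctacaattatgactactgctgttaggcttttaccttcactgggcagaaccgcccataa
The YHB1 and TSA2 windows held none of the 3 motifs. The OYE3 window held TTACTAA on each strand, and the CCP1 window held 1 AGGGG. A match is a description of the letters and does not show that a factor is bound.

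Among all 35 genes, TTACTAA on either strand was found in 8 windows (22.9%), against 7.4% of the 6001 protein-coding windows of the genome. These were the windows of SOD1, TRX2, GRX2, GLR1, GTT1, GTT2, OYE3 and SKN7, of which 4 were called lower (50%, against 62.9% of the 35), 1 higher and 3 not at all. TGACTAA was found in 3 windows (8.6% against 3.6%), those of SRX1, GPX1 and TRR1, of which 1, GPX1, was called lower. AGGGG on either strand was found in 16 windows (45.7% against 21.6%), of which 10 were called lower (62.5%, again beside 62.9% of the 35 and 25.0% of all genes), 3 higher and 3 not at all. ZWF1 held the most, with 5 matches. By their letters, matches of different motifs can share at most 1 end base.

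The superoxide dismutases were both lower in nhp6ab on the TMM scale. SOD1 (YJR104C), the abundant copper and zinc enzyme of the cytosol, had 857 and 842 CPM in nhp6ab and 1121 and 1125 CPM in the wild type (log2 fold change -0.40 ± 0.053 SE, adjusted p = 0.000987). SOD2 (YHR008C), the manganese enzyme of the mitochondrial matrix, had 145 and 143 CPM in nhp6ab and 187 and 179.7 CPM in the wild type (log2 fold change -0.35 ± 0.054 SE, adjusted p = 0.00196). For both genes the strains did not overlap. The SOD1 value was -0.19 with plain library sizes, where it was still called (adjusted p = 0.0151), and -0.11 in TPM, where it was not (limma, 0.19). SOD2 was called on neither (-0.14 and -0.056; adjusted p = 0.0653 in edgeR and 0.463 in limma). The ratio of SOD1 to SOD2 in TPM was 9.17 and 9.17 in the nhp6ab libraries and 9.32 and 9.72 in the wild-type libraries, a small difference.

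The heme enzymes that remove hydrogen peroxide went in different directions. CCP1 (YKR066C), the cytochrome c peroxidase of the mitochondrial intermembrane space, had 180.3 and 164 CPM in nhp6ab against 129.6 and 135 CPM in the wild type (log2 fold change 0.38 ± 0.065 SE, adjusted p = 0.00301). CTA1 (YDR256C), the catalase of peroxisomes, had 30.4 and 31.3 CPM in nhp6ab against 24.4 and 24.0 CPM in the wild type (log2 fold change 0.35 ± 0.062 SE, adjusted p = 0.00355). Both rose under TMM and kept the call under all 14 alternatives. CTT1 (YGR088W), the cytosolic catalase that is known as a target of Msn2 and Msn4, had 37.2 and 36.5 CPM in nhp6ab against 42.1 and 42.3 CPM in the wild type, a small decrease (log2 fold change -0.20 ± 0.057 SE, adjusted p = 0.026). The CTT1 call was lost when any 1 library was left out (adjusted p = 0.0533 and 0.115 without nhp6ab replicate 1 or 2, 0.0816 and 0.0819 without wild-type replicate 1 or 2) and in DESeq2 (0.108), and the sign turned with plain library sizes (0.016) and in TPM (0.092). Within libraries, CTT1 was 1.12 and 1.06 times as abundant as CTA1 in nhp6ab and 1.58 and 1.61 times as abundant in the wild type, in TPM.

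**Figure D3:**
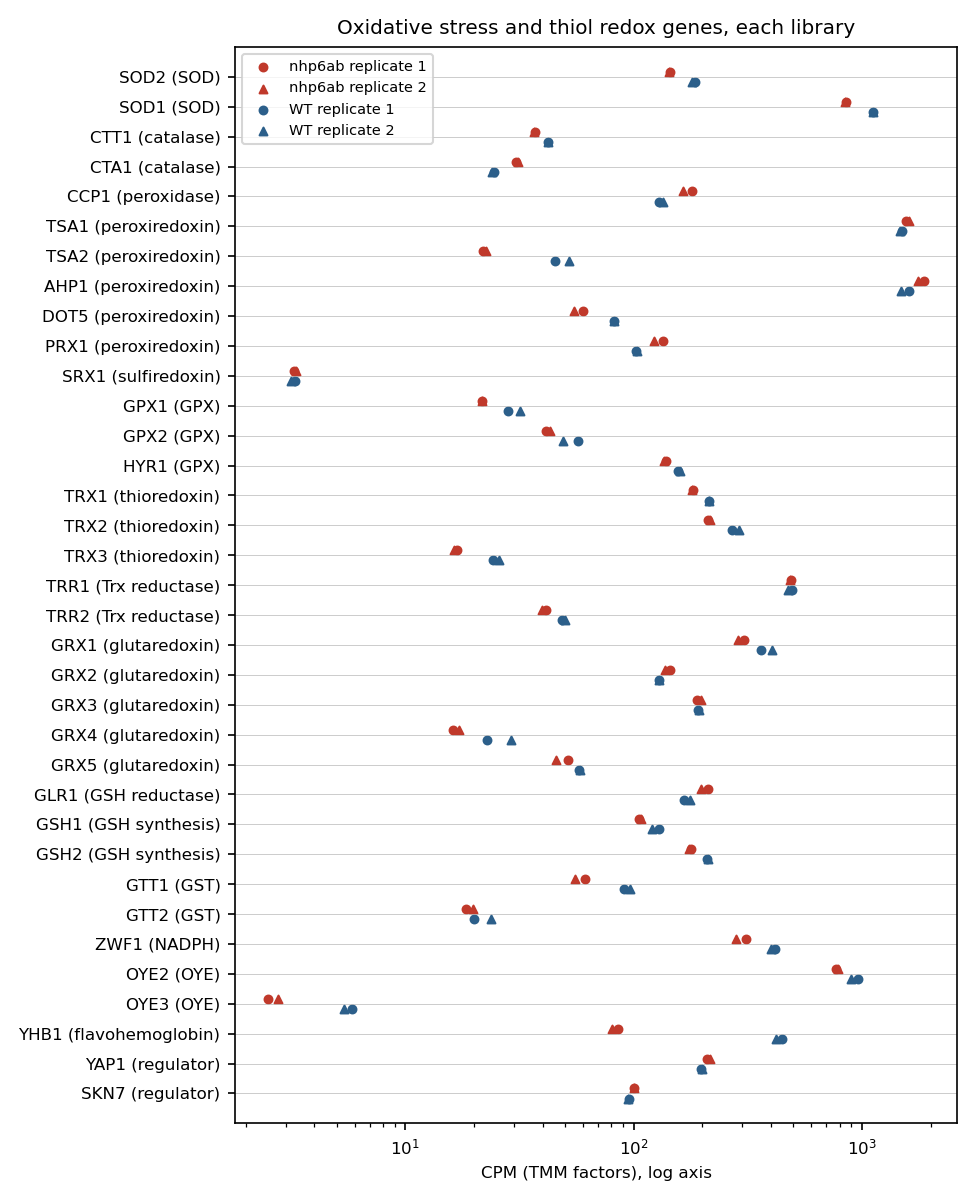
CPM with TMM factors (log axis) of each of the 35 genes in each library, nhp6ab drawn above WT in each row, with circles for replicate 1 and triangles for replicate 2. The levels span from 2.50 CPM for OYE3 to 1876 CPM for AHP1, both in nhp6ab replicate 1, and YHB1 shows the widest gap between strains.

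Peroxiredoxins reduce peroxides with a reactive cysteine, and TSA1 (YML028W) and AHP1 (YLR109W) are the most abundant of the 35 genes per length. AHP1 had 3391 and 3261 TPM in nhp6ab and 2354 and 2255 TPM in the wild type, and TSA1 had 2522 and 2652 TPM in nhp6ab and 1963 and 1999.7 TPM in the wild type. In CPM, TSA1, the main cytosolic enzyme, had 1565 and 1602 CPM in nhp6ab against 1501 and 1471 CPM in the wild type and was not called (log2 fold change 0.091 ± 0.051 SE, adjusted p = 0.178). It was called higher with plain library sizes (0.30, adjusted p = 0.00195) and in TPM (0.38, limma adjusted p = 0.00563). AHP1, a cytosolic enzyme that prefers organic peroxides, had 1876 and 1756 CPM in nhp6ab against 1606 and 1479.6 CPM in the wild type (log2 fold change 0.24 ± 0.064 SE, adjusted p = 0.0198). The AHP1 call was lost when nhp6ab replicate 1 or wild-type replicate 2 was dropped (adjusted p = 0.0827 and 0.122).

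TSA2 (YDR453C), the less abundant cytosolic paralog of TSA1, fell. It had 21.9 and 22.5 CPM in nhp6ab against 45.3 and 52.2 CPM in the wild type, and nhp6ab kept 45.5% of wild-type expression (log2 fold change -1.14 ± 0.082 SE, adjusted p = 8.53e-05). The call held under all 14 alternatives, with values from -1.24 to -0.82. DOT5 (YIL010W), the nuclear thiol peroxidase, also fell under all of them, with 60.3 and 54.8 CPM in nhp6ab against 81.7 and 82.5 CPM in the wild type (log2 fold change -0.51 ± 0.062 SE, adjusted p = 0.000671). PRX1 (YBL064C), the mitochondrial peroxiredoxin, had 134 and 123 CPM in nhp6ab against 103 and 103 CPM in the wild type and rose (log2 fold change 0.32 ± 0.061 SE, adjusted p = 0.00491), but was not called once wild-type replicate 1 was dropped (adjusted p = 0.058). SRX1 (YKL086W), the sulfiredoxin that repairs overoxidised peroxiredoxin, was near the bottom of the range with 3.25 and 3.31 CPM in nhp6ab against 3.30 and 3.17 CPM in the wild type and was not called (log2 fold change 0.018 ± 0.18 SE, adjusted p = 0.939). In TPM it was called higher (0.28, limma adjusted p = 0.0146), and on plain library sizes it was not (0.23, adjusted p = 0.316). Both values were near the median of all genes, 0.28 in TPM and 0.22 on plain library sizes. SRX1 had 67 to 104 expected counts per library. Summed over the 5 peroxiredoxins, nhp6ab had 6196 and 6184 TPM and the wild type 4573 and 4531 TPM, a ratio of 1.36, and most of the sum was AHP1 and TSA1. With TMM factors the sums were 3657 and 3558 CPM in nhp6ab and 3337 and 3189 CPM in the wild type, a ratio of 1.11.

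TSA1 and TSA2 have the highest coding identity of the paralogs compared, so their sequences bear on whether their reads can be told apart. Their coding regions are 78.5% identical over 591 bases, and the longest identical run is 14 bases. The 90 coding bases from each start codon, with the 19 differing bases in capitals, were as follows.
TSA1 (chrXIII:220138-220227, plus strand): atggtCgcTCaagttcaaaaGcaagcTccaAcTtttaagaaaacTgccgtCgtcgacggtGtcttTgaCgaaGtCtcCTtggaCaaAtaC
TSA2 (chrIV:1365573-1365662, minus strand): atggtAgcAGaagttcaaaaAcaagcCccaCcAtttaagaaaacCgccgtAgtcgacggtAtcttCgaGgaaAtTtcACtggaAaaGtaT
The read length is not given in the sources used here. Within the aligned coding regions of TSA1 and TSA2, any read longer than the longest identical run holds at least 1 differing base. GRX3 and GRX4 shared a longer identical run, of 21 bases. The run was 20 bases in TRR1 and TRR2 and in GPX1 and GPX2, and 17 in TRX1 and TRX2. No member had a near-identical copy (95% identity over at least 50% of the coding sequence) elsewhere in the annotated coding sequences.

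All 3 glutathione peroxidase genes were called lower on the TMM scale, each by a modest amount. HYR1 (YIR037W), also called GPX3, is the most abundant, and its protein passes the peroxide signal to Yap1. It had 139 and 137 CPM in nhp6ab against 157 and 159.5 CPM in the wild type (log2 fold change -0.20 ± 0.052 SE, adjusted p = 0.017). The call was lost without wild-type replicate 1 (adjusted p = 0.0742) or 2 (0.0902), and the sign turned with plain library sizes (0.013) and in TPM (0.094). GPX1 (YKL026C) had 21.6 and 21.6 CPM in nhp6ab against 28.1 and 31.7 CPM in the wild type (log2 fold change -0.47 ± 0.078 SE, adjusted p = 0.00278), and it was not called in TPM (-0.17). GPX2 (YBR244W), a target of Yap1 and Skn7, had 41.5 and 42.9 CPM in nhp6ab against 57.2 and 49.2 CPM in the wild type (log2 fold change -0.34 ± 0.081 SE, adjusted p = 0.0128) and lost its call on both other scales (-0.12 and -0.036) and without wild-type replicate 1 (adjusted p = 0.0689).

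In the thioredoxin system the thioredoxins were called lower on the TMM scale and the main reductase was not called. TRX1 (YLR043C) and TRX2 (YGR209C) encode the cytosolic thioredoxins, and TRX3 (YCR083W) the mitochondrial one. TRX2 had 211 and 217 CPM in nhp6ab against 269.9 and 290.4 CPM in the wild type (log2 fold change -0.39 ± 0.062 SE, adjusted p = 0.00229) and TRX1 had 182 and 180.4 CPM in nhp6ab against 214 and 213 CPM in the wild type (log2 fold change -0.24 ± 0.052 SE, adjusted p = 0.00848). Neither kept its call with plain library sizes (-0.18 for TRX2 and -0.027 for TRX1) or in TPM (-0.094 and 0.054, where TRX1 turned), and TRX1 lost it without wild-type replicate 1 (adjusted p = 0.0543). TRX3 had 16.9 and 16.4 CPM in nhp6ab against 24.2 and 25.8 CPM in the wild type (log2 fold change -0.59 ± 0.076 SE, adjusted p = 0.000965) and kept its call under all 14 alternatives. TRR1 (YDR353W), the cytosolic thioredoxin reductase, had 491 and 484 CPM in nhp6ab against 493 and 474 CPM in the wild type (log2 fold change 0.011 ± 0.057 SE, adjusted p = 0.884), and its libraries overlapped. It was called higher with plain library sizes (0.22, adjusted p = 0.011) and in TPM (0.30, limma 0.0096). These values were near the median of all genes, 0.22 and 0.28 on these scales. TRR2 (YHR106W), the mitochondrial reductase, had 41.4 and 39.6 CPM in nhp6ab against 48.7 and 50.2 CPM in the wild type (log2 fold change -0.29 ± 0.059 SE, adjusted p = 0.00681) and lost its call on both of those scales (-0.076 and 0.0045).

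Of the 5 glutaredoxin genes, 3 were called lower with TMM factors and 2 were not called. GRX1 (YCL035C) and GRX2 (YDR513W) encode dithiol glutaredoxins. GRX1 had 303 and 286 CPM in nhp6ab against 363 and 406 CPM in the wild type (log2 fold change -0.38 ± 0.074 SE, adjusted p = 0.00501), called on neither other scale (-0.17 with plain library sizes and -0.090 in TPM). GRX2 had 144 and 137 CPM in nhp6ab against 129 and 129 CPM in the wild type and was not called (log2 fold change 0.12 ± 0.054 SE, adjusted p = 0.1), but was called higher with plain library sizes (0.33) and in TPM (0.41). It shares 47 bases with EMI1 in the annotation, so its count may hold reads of that gene. GRX3 (YDR098C) and GRX4 (YER174C) encode monothiol glutaredoxins that act in iron regulation. GRX3 had 189 and 197 CPM in nhp6ab against 192 and 193 CPM in the wild type (log2 fold change 0.0063 ± 0.055 SE, adjusted p = 0.932), with overlapping libraries. On the other scales GRX3 was called higher (0.22 and 0.30), with values near the median of all genes there (0.22 and 0.28). GRX4 had 16.1 and 17.1 CPM in nhp6ab against 22.9 and 28.9 CPM in the wild type (log2 fold change -0.63 ± 0.12 SE, adjusted p = 0.00438) and lost its call in TPM (-0.32). The mitochondrial GRX5 (YPL059W), which acts in iron-sulfur cluster assembly, had 51.6 and 45.8 CPM in nhp6ab against 57.8 and 58.2 CPM in the wild type (log2 fold change -0.25 ± 0.070 SE, adjusted p = 0.0212). The GRX5 call was lost without nhp6ab replicate 2 (adjusted p = 0.0826), wild-type replicate 1 (0.106) or wild-type replicate 2 (0.119), and the value was -0.042 with plain library sizes and 0.037 in TPM.

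Glutathione is made by Gsh1, the rate-limiting enzyme, and Gsh2, and is kept reduced by Glr1. GLR1 (YPL091W) had 211 and 197 CPM in nhp6ab against 166 and 176 CPM in the wild type and rose (log2 fold change 0.26 ± 0.063 SE, adjusted p = 0.014), on the other scales as well (0.47 and 0.54), but was not called without wild-type replicate 1 (adjusted p = 0.106). GSH1 (YJL101C) had 106 and 108 CPM in nhp6ab against 129 and 120.5 CPM in the wild type (log2 fold change -0.22 ± 0.057 SE, adjusted p = 0.0161) and GSH2 (YOL049W) had 178 and 175 CPM in nhp6ab against 209.9 and 212 CPM in the wild type (log2 fold change -0.26 ± 0.052 SE, adjusted p = 0.00653). Both were called lower on the TMM scale only, with values of -0.010 and -0.045 with plain library sizes and 0.070 and 0.036 in TPM, and GSH1 lost the call without wild-type replicate 1 (adjusted p = 0.119). Of the glutathione transferases, GTT1 (YIR038C), which is bound to the endoplasmic reticulum, fell with 61.6 and 55.6 CPM in nhp6ab against 90.6 and 96.1 CPM in the wild type (log2 fold change -0.67 ± 0.068 SE, adjusted p = 0.000314), under all 14 alternatives. GTT2 (YLL060C) had 18.5 and 19.9 CPM in nhp6ab against 19.9 and 23.8 CPM in the wild type and was not called (log2 fold change -0.18 ± 0.10 SE, adjusted p = 0.175), with values of 0.028 on plain library sizes and 0.10 in TPM, also without a call. GTT1 and HYR1 are convergent neighbours on chromosome IX with 189 bases between their coding regions, and the use of strand in counting is not given, so reads of their transcript ends may have been mixed.

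ZWF1 (YNL241C) encodes glucose-6-phosphate dehydrogenase, the entry to the pentose phosphate pathway and a main source of NADPH. It had 311 and 281 CPM in nhp6ab against 417 and 399 CPM in the wild type (log2 fold change -0.46 ± 0.070 SE, adjusted p = 0.00191), with a call also with plain library sizes (-0.25, adjusted p = 0.0107) but not in TPM (-0.17, limma 0.0855). The old yellow enzymes, NADPH oxidoreductases of the cytosol, differed widely in level. OYE2 (YHR179W) had 775 and 787 CPM in nhp6ab against 965 and 895 CPM in the wild type (log2 fold change -0.25 ± 0.061 SE, adjusted p = 0.0129), without a call on the other scales (-0.039 and 0.043) or after wild-type replicate 1 was dropped (adjusted p = 0.0739). OYE3 (YPL171C) was the lowest of the 35 in TPM and had 2.50 and 2.77 CPM in nhp6ab against 5.85 and 5.39 CPM in the wild type, so that nhp6ab kept 46.8% (log2 fold change -1.09 ± 0.17 SE, adjusted p = 0.00209). It rested on 77 to 149 expected counts per library, fell below the stricter filter of 10 CPM, and was called lower under the other 13 alternatives, with values from -1.17 to -0.58. It was -0.88 on plain library sizes and -0.58 in TPM, where the pseudocount understates the change of so low a gene.

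Neither regulator was called on the TMM scale. YAP1 (YML007W) had 211 and 216 CPM in nhp6ab against 198 and 199.7 CPM in the wild type (log2 fold change 0.10 ± 0.053 SE, adjusted p = 0.15) and SKN7 (YHR206W) had 101 and 100.4 CPM in nhp6ab against 95.5 and 94.2 CPM in the wild type (log2 fold change 0.085 ± 0.051 SE, adjusted p = 0.206). In both genes the nhp6ab libraries lay slightly above the wild-type ones. With plain library sizes both were called higher (0.32 for YAP1, adjusted p = 0.0029, and 0.30 for SKN7, 0.00298), as in TPM (0.39 and 0.37). The median of all genes was 0.22 and 0.28 on these scales.

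Ratios within a library do not depend on the scaling between libraries, so the paralogs were also compared that way, in TPM. TSA1 was 71.6 and 71.3 times as abundant as TSA2 in the nhp6ab libraries and 33.1 and 28.2 times in the wild-type libraries, a change of 1.23 on the log2 scale. OYE2 was 309.7 and 285 times as abundant as OYE3 in nhp6ab and 165 and 166 times in the wild type, a change of 0.84, and GRX3 was 9.98 and 9.80 times as abundant as GRX4 in nhp6ab and 7.14 and 5.67 times in the wild type (0.64). In each of these pairs the scarcer gene was a smaller part of the pair in nhp6ab. The opposite was seen for GRX1, at 2.81 and 2.78 times GRX2 in nhp6ab and 3.75 and 4.19 times in the wild type (-0.51), and for GTT1, at 3.31 and 2.78 times GTT2 in nhp6ab and 4.53 and 4.01 times in the wild type (-0.49). TRR1 to TRR2 changed by 0.30 and TRX1 to TRX2 by 0.15. GPX1 to GPX2 was the only pair of the 10 whose strains overlapped. The share of other gene pairs that do not overlap was not taken. For single genes, 77.5% of all genes did not overlap in CPM. With 2 libraries per strain the exact two-sided permutation test cannot give a p below 0.333, which it gave for the 9 pairs that did not overlap.

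**Figure D4:**
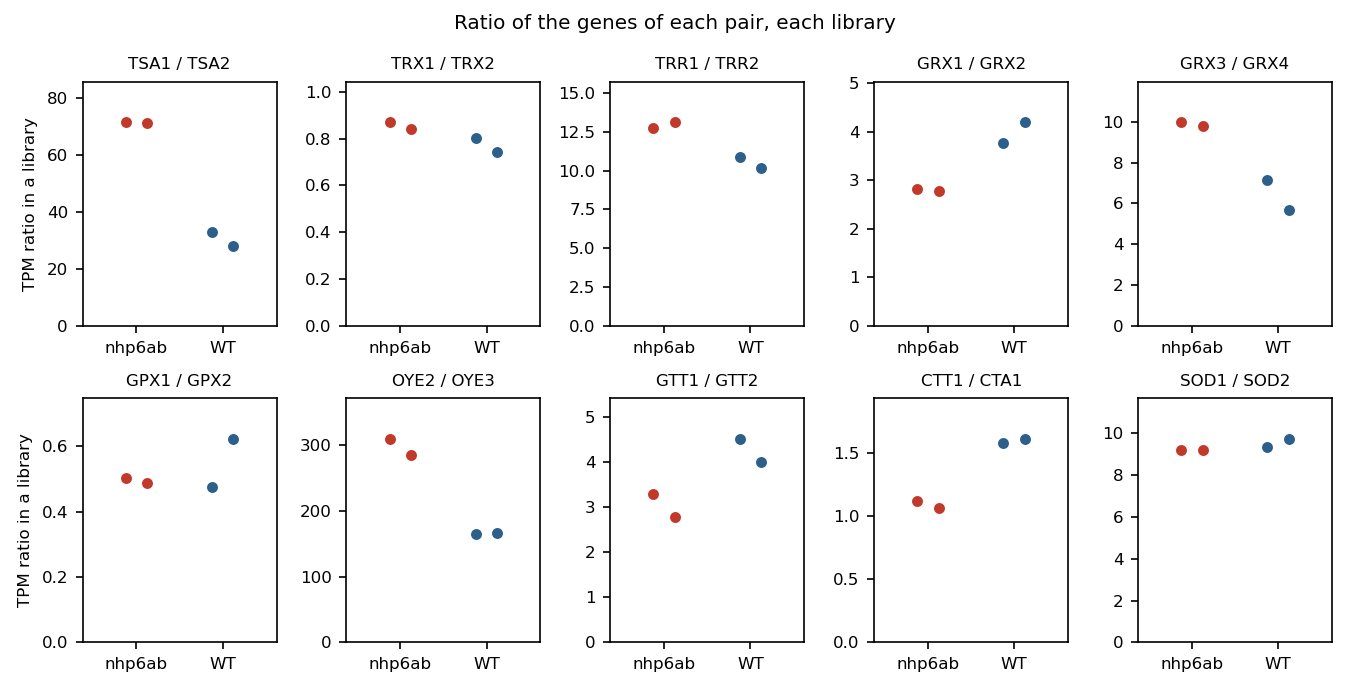
Ratio of the TPM of the genes of each of 10 pairs, with 1 point per library, nhp6ab on the left and WT on the right, and a separate axis from 0 for each pair. The ratio of TSA1 to TSA2 is over 70 in both nhp6ab libraries and under 34 in both wild-type libraries, while SOD1 to SOD2 differs little.

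Together the 35 genes made up 1.36 and 1.36% of all TPM in nhp6ab and 1.19 and 1.22% in the wild type. The sum in TPM was higher in nhp6ab (a ratio of 1.13) although most members were called lower on the TMM scale. AHP1, TSA1 and SOD1 are its largest parts, of which AHP1 and TSA1 were higher in nhp6ab in TPM. SOD1 had 1787 and 1803 TPM in nhp6ab against 1896 and 1978 TPM in the wild type, lower but not called in TPM (limma adjusted p = 0.19). TPM carries no TMM factors, and the all-gene median log2 fold change in TPM was 0.28. The sum over the 35 genes with TMM factors was not taken. Members were well covered: 9 of the 35 ranked among the 500 genes with the highest mean wild-type TPM, and 33 had at least 100 expected counts in every library.

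The other genes of the pathway were taken from 4 lists of 65 genes in all. Of these, 24 were called lower and 14 higher (36.9% and 21.5%, against 25.0% and 24.5% of all genes). Those called higher numbered 4 without wild-type replicate 1 and 8 without wild-type replicate 2. The pentose phosphate and NADPH list had 9 of 16 genes called lower (56.2%) and 1 higher (6.25%), with a median log2 fold change of -0.36. RKI1, the ribose-5-phosphate isomerase, had 58.4 and 69.2 CPM in nhp6ab against 139 and 139 CPM in the wild type (log2 fold change -1.12 ± 0.083 SE, adjusted p = 9.43e-05). IDP1, the mitochondrial NADP-dependent isocitrate dehydrogenase, had 87.1 and 83.0 CPM in nhp6ab against 137 and 150.4 CPM in the wild type (log2 fold change -0.76 ± 0.065 SE, adjusted p = 0.000172), and GND2, the minor 6-phosphogluconate dehydrogenase, had 11.4 and 9.76 CPM in nhp6ab against 21.7 and 20.6 CPM in the wild type (49.9% of wild type, adjusted p = 0.000348). TKL1, a transketolase, was the gene called higher (0.20), and it lost the call when any 1 library was left out (adjusted p = 0.0869 and 0.0543 without nhp6ab replicate 1 or 2, 0.0721 and 0.0715 without wild-type replicate 1 or 2). The list gave 3 higher and 7 lower with plain library sizes, where 47.1% of all genes were higher and 12.5% lower. In TPM it gave 3 and 4, where the all-gene shares were 54.5% and 9.25%.

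Other genes of thiol redox and glutathione use were called lower in 11 of 19 cases (57.9%) and higher in 1 (5.26%), with a median of -0.23. The shares of all genes were 25.0% lower and 24.5% higher. With plain library sizes 3 were higher and 6 lower, beside 47.1% and 12.5% of all genes. In TPM 5 were higher and 3 lower, beside 54.5% and 9.25%. MXR1, a methionine sulfoxide reductase, had 37.0 and 37.6 CPM in nhp6ab against 68.2 and 67.0 CPM in the wild type (log2 fold change -0.86 ± 0.054 SE, adjusted p = 4.94e-05). OPT1, a transporter of glutathione and peptides, had 32.5 and 32.8 CPM in nhp6ab against 56.7 and 49.4 CPM in the wild type (log2 fold change -0.70 ± 0.078 SE, adjusted p = 0.000502), and ECM4, a glutathione transferase, had 32.2 and 29.7 CPM in nhp6ab against 45.6 and 50.9 CPM in the wild type (log2 fold change -0.64 ± 0.078 SE, adjusted p = 0.000712). These 3 were called lower on all 3 scales. Without wild-type replicate 2, 7 genes of the list were called lower. GRX7, a glutaredoxin of the early secretory pathway, was called higher (0.33, adjusted p = 0.00243).

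Among 14 other genes of oxidant defence, 5 were called higher (35.7%) and 4 lower (28.6%), with a median of -0.065. The shares of all genes were 24.5% and 25.0%, so the share called lower was near that of all genes. On both other scales 7 were higher and 3 lower. The all-gene shares there were 47.1% and 12.5% with plain library sizes and 54.5% and 9.25% in TPM. ZTA1, an NADPH quinone reductase, had 29.6 and 25.6 CPM in nhp6ab against 69.6 and 78.0 CPM in the wild type (log2 fold change -1.42 ± 0.089 SE, adjusted p = 5.12e-05), the largest decrease of the 65. MTM1, a mitochondrial carrier needed for Sod2 activity, had 44.3 and 42.1 CPM in nhp6ab against 64.9 and 65.3 CPM in the wild type (log2 fold change -0.59 ± 0.055 SE, adjusted p = 0.00024). HSP31, a DJ-1 family protein, was lower on the TMM scale (-0.41) but not called on the others (-0.19 and -0.11). HBN1, a nitroreductase-like protein (0.37), OXR1 (0.31) and RFS1 (0.23) were called higher, though OXR1 and RFS1 were not once wild-type replicate 1 was dropped (adjusted p = 0.0537 and 0.0947). In this list 1 gene was called higher without wild-type replicate 1, and 3 without nhp6ab replicate 1.

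Among 16 other redox regulators, Yap family factors and transporters, 7 were called higher and 0 lower (median 0.092), a share called higher of 43.8%, against 24.5% of all genes. On plain library sizes 10 were higher, beside 47.1% of all genes, and in TPM 11, beside 54.5%, with 0 lower on either. The edgeR test gave 2 or 3 higher when wild-type replicate 1 or 2 was left out, and 6 higher and 1 lower without nhp6ab replicate 2. CIN5, a Yap family factor, had 19.8 and 17.0 CPM in nhp6ab against 9.81 and 9.51 CPM in the wild type (log2 fold change 0.93 ± 0.11 SE, adjusted p = 0.000646), and YAP7 had 24.9 and 27.0 CPM in nhp6ab against 16.7 and 19.2 CPM in the wild type (log2 fold change 0.53 ± 0.092 SE, adjusted p = 0.00313). YAP3 was called higher (0.29), but not without wild-type replicate 1 (adjusted p = 0.0601).

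**Figure D5:**
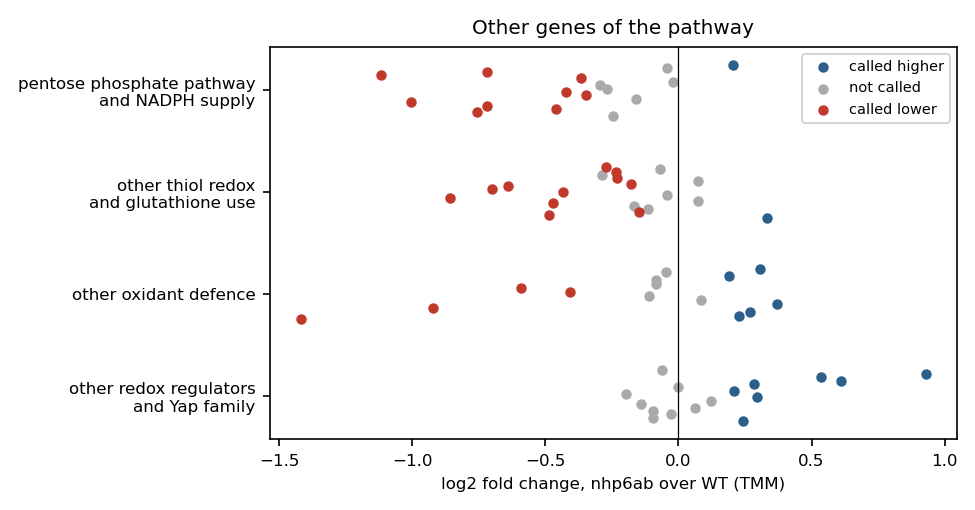
Log2 fold change (nhp6ab over WT, TMM scale) of the 65 other genes of the pathway, 1 point per gene in 4 lists, coloured by call. The pentose phosphate and thiol lists lie mostly left of 0 and the list of regulators has 7 genes called higher and 0 called lower.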

How the data were processed

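Polyadenylated RNA of nhp6ab and wild-type yeast was sequenced, 2 libraries per strain, grouped by the titles in the labels. The authors deposited RSEM expected counts per gene and RSEM TPM values (scaled by gene length and library), both named so by the sheets. Per the submitters' processing notes, reads were placed on sacCer3. The sources used here do not give the aligner, RSEM version, annotation or use of strand. Of the 6688 identifiers, 6005 matched the RefSeq R64 annotation, including all 35 members, and 4 lines without an identifier were left out.

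Rounded expected counts went into edgeR 4.0.16 under R 4.3.3 (TMM factors of 1.06 and 1.10 in nhp6ab and 0.924 and 0.934 in the wild type, minimum count 10, minimum total 15, quasi-likelihood F test, 1 term for strain, with 2 residual degrees of freedom), with Benjamini-Hochberg adjustment over 6422 genes and a threshold of 0.05. CPM values use the TMM factors, and each SE was obtained as |log2 fold change| over the root of F. TPM was tested with limma 3.58.1 on log2(TPM + 1), where fold changes of low genes are understated. On simulated counts for this comparison over 6406 genes, 35 of 50 genes set to a 1.3-fold change and 48 of 50 set to 2-fold were called, beside 27 unchanged ones. Far fewer genes were changed in the simulation than were called in the data, so it does not give the power or error rate of this comparison. Alternatives are given in the closing section and included DESeq2 1.42.0. Coding sequences were compared with BLAST+ 2.17.0 and Biopython 1.88, and figures used matplotlib 3.10.9.

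The members, lists, pairs and motifs were chosen with earlier results of these data known. The text accounts for every member and, in each of the 4 other lists, names up to 3 called genes per direction by adjusted p.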

Additional observations from a re-analysis of the deposited data

How the results depend on the processing

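The scaling moved the counts of members called most, and leaving out wild-type replicate 1 moved the other pathway genes called higher most (4 against 14). On plain library sizes (library size alone), members called numbered 11 higher and 10 lower (against 5 and 22), all genes 3023 and 800 (against 1576 and 1606), and the other pathway genes 23 and 16 (against 14 and 24). On log2(TPM + 1) they were 12 and 6, 3498 and 594, and 26 and 10, and on log2(TPM + 0.1) 12 and 6, 3403 and 574, and 26 and 10. These scales omit the TMM factors by construction. The member median turned to 0.043 and 0.043 with the 2 pseudocounts. Members called with TMM factors that turned had, on log2(TPM + 1) and log2(TPM + 0.1), 0.092 and 0.096 (CTT1), 0.094 and 0.094 (HYR1), 0.054 and 0.054 (TRX1), 0.0045 and 0.0047 (TRR2), 0.037 and 0.038 (GRX5), 0.070 and 0.071 (GSH1), 0.036 and 0.037 (GSH2), 0.043 and 0.043 (OYE2), and on plain library sizes CTT1 had 0.016 and HYR1 0.013. GTT2, not called on any scale, turned to 0.028 on plain library sizes and to 0.10 and 0.11 on the TPM scales. Leaving out each library in turn gave 3 to 5 members higher and 15 to 21 lower, 901 to 1462 and 1063 to 1557 genes in all, and 4 to 12 and 18 to 25 other pathway genes. The lowest of these counts came without wild-type replicate 1, except for the other pathway genes called lower, fewest without wild-type replicate 2. Without wild-type replicate 2, 918 genes in all were higher. In the members, 9 calls were lost without wild-type replicate 1, 4 without wild-type replicate 2, 2 without nhp6ab replicate 1 and 2 without nhp6ab replicate 2. DESeq2's size factors or upper quartile factors in edgeR, no low-count filter and limma-voom changed no member's call, DESeq2 lost that of CTT1, and the filter of 10 CPM left 33 members with their calls. The replicate differences showed little correlation between strains (-0.0647), which cannot tell whether libraries of the same replicate number were handled together. With a replicate block 5 members were higher and 22 lower, with no member's call changed. SRX1 and OYE3 are limited by depth, with as few as 67 and 77 expected counts in a library.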
